A study of Homo sapiens with 12 samples.

Results

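The mitochondrial ribosomal protein genes are the nuclear genes for the proteins of the mitochondrial ribosome. They were chosen as the rows of the count table that are annotated as protein coding and whose symbol is MRPL or MRPS followed by a number and at most 1 letter, a rule that uses only symbol and gene type. This gave 78 of the 58735 genes in the table, 49 named MRPL for the large subunit and 29 named MRPS for the small subunit. By the structure of the assembled ribosome, 51 belong to the large and 26 to the small subunit, because MRPS30 and MRPS18A sit in the large subunit. MRPS36 is no part of the ribosome and is now known as a component of the alpha-ketoglutarate dehydrogenase complex. The expression of these genes was compared between control and GFI1-expressing A549 cells under attached or floating conditions.

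A549 cells are a long-used human line from a lung adenocarcinoma that grows attached to the dish. GFI1 is a transcriptional repressor with zinc fingers that is normally made by developing blood cells. All cells were cultured in RPMI1640 medium with fetal bovine serum. The 4 groups were attached control A549, attached GFI1-expressing A549, floating control A549 and floating GFI1-expressing A549, with 3 RNA-Seq libraries each. The floating cells had been forced into suspension for 48 hours, and the attached cells are labelled untreated. GFI1 was expressed from a lentivirus with the human PGK promoter and a GFP marker, by which transduced cells were sorted. The study's methods name an empty vector for control A549 cells in animal assays, and the labels do not state the vector of the control libraries. The labels also do not state that replicates came from separate cultures, and p values then measure only the spread between these libraries.

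The mitochondrial ribosome translates the 13 mRNAs encoded by mitochondrial DNA, all of which specify subunits of the oxidative phosphorylation complexes. It is built from 2 rRNAs encoded in mitochondria and a large set of imported proteins, some with bacterial counterparts and others found only in mitochondria. Promoters of genes for mitochondrial proteins are known for sites of NRF1, of GABPA, which is an ETS factor, and of YY1. The study asked how GFI1 bears on the survival of epithelial cancer cells that lose their attachment, and these groups allow its effect to be compared with and without a substrate.

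Total counts were 17014188 to 20748677 per library. GFI1 itself was between 0.238 and 0.711 CPM (counts scaled to a common library total) in the 6 control libraries. It was 286 to 294 CPM in attached and 430.2 to 706 CPM in floating GFI1 libraries. All CPM values were scaled by TMM, a normalization for RNA composition. The floating GFI1 libraries differed most among themselves, with a chi-square per gene of 11.8 between replicates 2 and 3 against 2.01 to 4.99 for the other pairs within groups. Of the labelled cell type's markers, all 7 epithelial genes and all 7 NRF2 target genes that A549 expresses strongly reached 1 CPM in at least 1 library. EPCAM had means of only 0.608 CPM in attached and 0.596 CPM in floating GFI1 libraries. The surfactant genes stayed under 1 CPM, as did 4 of 5 blood cell genes, and CD14 was the exception. Of the other alveolar genes, NAPSA had group means of 2.30 to 3.30 CPM. NKX2-1 rose with GFI1, from a mean of 0.208 to 0.793 CPM in attached and from 0.356 to 1.68 CPM in floating cells. The sum of the 7 epithelial markers was 10391 to 10992 CPM in attached control, 4230 to 4347 CPM in attached GFI1, 6538 to 6948 CPM in floating control and 3049 to 3422 CPM in floating GFI1 libraries. KRT7, KRT8 and KRT18 made up most of it, and with GFI1 5 of the 7 fell and 2 rose in attached cells. CDH1 fell most, from a mean of 119.8 to 6.45 CPM in attached and from 85.4 to 3.99 CPM in floating cells. Of the 7 NRF2 target genes, 3 fell and 2 rose with GFI1 in attached cells. Among them, AKR1B10 fell from a mean of 3081 to 481 CPM and AKR1C1 rose from 654 to 1386 CPM. The sum of 5 fibroblast markers was 7.39 to 15.2 CPM over all libraries, with COL1A2 and DCN under 1 CPM, and in attached cells COL1A1 fell and PDGFRB rose with GFI1. The sum of 4 endothelial markers was 0.109 to 0.662 CPM in control and 3.55 to 5.52 CPM in GFI1 libraries, with PECAM1, VWF and KDR under 1 CPM in all of them. The part of these differences in the results below was not tested.

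The promoters of the mitochondrial ribosomal protein genes were searched for short sequences, which the choice of genes did not use. RefSeq promoter windows (build GRCh38.p14) of 300 bases, from 250 bases before to 50 bases after the start of transcription, matched 69 of the 78 genes. Both strands were searched, and the shares below are descriptions without a test. The YY1 motif AAGATGGC was found in 30.4% of the 69 genes, against 6.01% of the other tested protein-coding genes with a window and 2.89% of all 35116 windows. The ETS motif CCGGAAG was found in 43.5% of the genes, against 21.02% of the other tested genes and 10.3% of all windows. The NRF1 motif GCGCANGCG was found in 20.3%, against 16.2% and 7.52%. The E-box CACGTG (13.0%, against 12.5% and 7.26%), the GC box GGGCGGGG (37.7%, against 44.6% and 22.8%) and AAATCAC, a core of the GFI1 site (2.90%, against 3.08% and 3.14%), were searched in the same way. For each motif, the first 2 shares are of genes with it in any window, and the last is of windows. Of the 69 genes, 11 had more than 1 window. Of their 85 windows, 27.1% held the YY1, 38.8% the ETS and 17.6% the NRF1 motif. The E-box was in 10.6%, the GC box in 34.1% and AAATCAC in 2.35% of these 85 windows. In attached cells, the median log2 fold change with GFI1 was -0.28 for the 20 tested genes with the YY1 motif and -0.33 for the 48 without it. It was -0.29 for the 30 tested genes with the ETS motif and -0.33 for the 38 without it. For AAATCAC it was -0.04 for only 2 genes with it and -0.32 for the 66 without it. With and without the motif, it was -0.29 and -0.32 for NRF1, -0.27 and -0.32 for the E-box and -0.30 and -0.31 for the GC box. In floating cells, the medians were -0.29 and -0.35 for YY1, -0.32 and -0.35 for ETS and -0.10 and -0.35 for AAATCAC. They were -0.32 and -0.34 for NRF1, -0.26 and -0.34 for the E-box and -0.29 and -0.35 for the GC box.

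Windows are printed for the genes that the comparisons turn on, which are MRPL39, MRPL12 and MRPS12 with the largest falls, and MRPL45, MRPL16 and MRPS6, which rose in at least 1 comparison. Capitals mark any of the motifs, on either strand, and windows without capitals hold none of these letters.
MRPL39, chr21:25607432-25607731, minus strand: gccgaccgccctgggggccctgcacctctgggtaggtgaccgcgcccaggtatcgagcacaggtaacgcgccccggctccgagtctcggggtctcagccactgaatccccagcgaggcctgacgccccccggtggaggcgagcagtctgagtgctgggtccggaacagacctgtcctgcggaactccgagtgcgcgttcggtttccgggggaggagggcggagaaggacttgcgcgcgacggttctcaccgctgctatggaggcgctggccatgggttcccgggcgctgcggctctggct
MRPL12, chr17:81703117-81703416, plus strand: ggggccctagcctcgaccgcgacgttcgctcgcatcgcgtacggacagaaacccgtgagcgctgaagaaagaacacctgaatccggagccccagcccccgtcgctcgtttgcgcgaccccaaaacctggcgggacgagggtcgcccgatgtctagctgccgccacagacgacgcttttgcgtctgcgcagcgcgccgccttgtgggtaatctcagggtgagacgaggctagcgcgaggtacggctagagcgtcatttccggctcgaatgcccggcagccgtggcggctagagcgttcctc
MRPS12, chr19:38930694-38930993, plus strand: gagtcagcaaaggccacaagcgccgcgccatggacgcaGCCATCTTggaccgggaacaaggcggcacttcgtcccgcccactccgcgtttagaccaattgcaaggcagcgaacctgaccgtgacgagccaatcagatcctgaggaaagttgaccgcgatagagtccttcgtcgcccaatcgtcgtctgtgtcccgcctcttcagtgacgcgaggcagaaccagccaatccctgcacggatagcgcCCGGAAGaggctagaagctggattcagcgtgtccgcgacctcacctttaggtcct
MRPL45, chr17:38296918-38297217, plus strand: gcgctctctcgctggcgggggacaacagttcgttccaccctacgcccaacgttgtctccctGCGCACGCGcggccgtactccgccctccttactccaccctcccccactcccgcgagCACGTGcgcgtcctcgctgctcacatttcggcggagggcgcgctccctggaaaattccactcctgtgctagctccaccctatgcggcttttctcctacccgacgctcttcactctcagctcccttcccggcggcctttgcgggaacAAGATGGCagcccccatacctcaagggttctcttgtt
MRPL16, chr11:59810729-59811028, minus strand: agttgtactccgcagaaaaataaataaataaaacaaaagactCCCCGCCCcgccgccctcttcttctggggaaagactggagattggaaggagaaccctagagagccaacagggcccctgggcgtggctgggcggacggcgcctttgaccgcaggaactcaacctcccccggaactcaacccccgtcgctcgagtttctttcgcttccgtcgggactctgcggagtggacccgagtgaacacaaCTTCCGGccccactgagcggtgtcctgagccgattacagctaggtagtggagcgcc
MRPS6, chr21:34073328-34073627, plus strand: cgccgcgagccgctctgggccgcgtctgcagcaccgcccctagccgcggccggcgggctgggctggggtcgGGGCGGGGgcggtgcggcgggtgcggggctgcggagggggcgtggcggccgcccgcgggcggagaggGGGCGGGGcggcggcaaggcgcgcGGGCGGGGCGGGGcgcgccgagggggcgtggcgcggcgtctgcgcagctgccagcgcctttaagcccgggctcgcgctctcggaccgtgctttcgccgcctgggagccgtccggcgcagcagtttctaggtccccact
The MRPS12 window holds the YY1 motif far upstream and the ETS motif near the start, and the MRPL45 window holds NRF1, E-box and YY1 motifs. The MRPL16 window holds a GC box and an ETS motif, and the MRPS6 window holds GC boxes only. A match describes these letters only, and binding of a factor was not measured.

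All 78 genes had at least 1 count in every library. Their levels per length, as the mean CPM per kilobase of gene length over the 12 libraries (RPKM), ran from 0.11 to 96.4 RPKM. The most abundant per length were MRPS34, which is found only in mitochondrial ribosomes, at 96.4 RPKM, MRPL41 at 71.3 RPKM and MRPL51 at 66.4 RPKM. The least abundant were MRPS24 at 0.11 RPKM, MRPL38 at 1.02 RPKM and MRPL46 at 1.65 RPKM. MRPS24 had only 1 to 12 counts per library and was the 1 gene that did not pass the filter on low counts, which left 77 genes tested. In the GENCODE v44 annotation, 23.2% of its exon bases are shared with the readthrough gene URGCP-MRPS24 on the same strand. Reads of these genes cannot all be told apart, and URGCP-MRPS24 itself had 0 or 1 counts per library. For MRPL38 and MRPL46, 41.1% and 11.3% of the exon bases are shared with another gene on the same strand. The part of shared exons in these low values was not tested. The group medians were 17.003 RPKM in attached control, 14.4 RPKM in attached GFI1, 15.6 RPKM in floating control and 12.7 RPKM in floating GFI1 cells. In the same order, the median of the MRPL genes was 18.3, 14.8, 17.5 and 13.3 RPKM, and that of the MRPS genes was 13.1, 9.71, 12.1 and 9.11 RPKM.

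Summed over all 78 genes, the libraries separated by group. The sum was 4328, 4168 and 4127 CPM in attached control, 3391, 3273 and 3253 CPM in attached GFI1, 3761, 3807 and 3781 CPM in floating control and 2918, 2916 and 2975 CPM in floating GFI1 libraries. The 4 groups did not overlap, with attached control highest and floating GFI1 lowest. The sum was 21.4% lower with GFI1 in attached and 22.4% lower in floating cells, and it was 10.1% lower in floating than in attached control cells and 11.2% lower in floating than in attached GFI1 cells. In each of these comparisons the exact two-sided permutation test gave p = 0.1, the smallest value that 3 against 3 libraries allow.

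**Figure D1:**
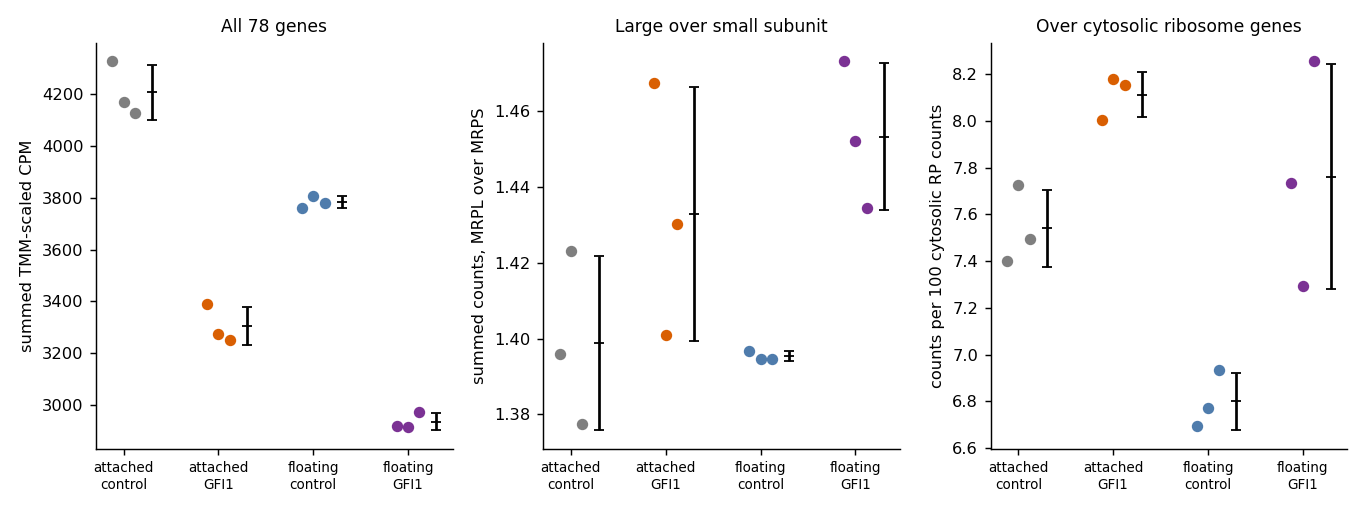
Sums over genes in each of the 12 libraries by group: summed TMM-scaled CPM of the 78 genes (left), summed MRPL counts over summed MRPS counts (middle), and counts of the 78 genes per 100 counts of cytosolic ribosomal protein genes (right). Points are libraries and bars give the mean with its SD (n = 3), and the axes do not start at 0. The summed CPM falls from 4127 to 4328 in attached control to 2916 to 2975 in floating GFI1 libraries.

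In attached cells, most mitochondrial ribosomal protein genes were lower with GFI1. Of the 77 tested, 58 fell and 2 rose by edgeR's quasi-likelihood test, where a gene was called at a Benjamini-Hochberg adjusted p up to 0.05 over all 17829 genes tested. Among all genes tested, 32.8% fell and 29.5% rose. The members are all protein coding, and among the 13761 protein-coding genes tested 38.0% fell and 30.8% rose. The median log2 fold change was -0.31 for the members and -0.01 for all genes, which corresponds to 19.3% less mRNA for the median member. Fewer cells of a kind and less mRNA per cell cannot be told apart in such libraries. The shift depends on the scaling, and with total counts alone the medians were -0.16 and 0.14, so that the members were at -0.30 relative to all genes under either scaling. By total counts alone, 39 members fell and 5 rose. The 32.8% and 29.5% of all genes belong to TMM scaling, and the shares of all genes by total counts alone were not counted.

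The largest falls in attached cells were those of MRPL39, MRPL12, MRPS26 and MRPL3. MRPL39 (chromosome 21, 25585656 to 25607517, minus strand, hg38), a large subunit protein without a bacterial counterpart, had 24.8, 27.97 and 24.8 CPM in attached control and 13.9, 14.03 and 13.6 CPM in attached GFI1 libraries. The groups were far apart, and the log2 fold change was -0.91 ± 0.079 (SE, adjusted p = 2.43e-10). MRPL12 (chromosome 17, 81703357 to 81707526, plus strand), the stalk protein that recruits translation factors, had 30.9, 28.1 and 29.2 CPM in attached control and 20.3, 12.6 and 18.9 CPM in attached GFI1 libraries. The groups did not overlap, but replicate 2 of the GFI1 libraries lay well below the other two. The log2 fold change of MRPL12 was -0.78 ± 0.11 (SE, adjusted p = 2.02e-06), and it was -0.59 without that library. In the reference annotation, 69.5% of the exon bases of MRPL12 are shared with another gene on the same strand. MRPS26, a small subunit protein found only in mitochondria, had a log2 fold change of -0.70 ± 0.050 (SE). MRPL3, which is conserved from bacteria, had 117, 114 and 109 CPM in control and 70.1, 70.3 and 70.7 CPM in GFI1 libraries. Its log2 fold change was -0.69 ± 0.044 (SE, adjusted p = 4.82e-13).

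The members that rose with GFI1 in attached cells were MRPS6 and MRPL16. MRPL16 (chromosome 11, 59806135 to 59810872, minus strand), a protein of the large subunit with a bacterial counterpart, had 45.7, 46.0 and 44.2 CPM in control and 52.6, 51.0 and 52.3 CPM in GFI1 libraries. All GFI1 libraries were above all control libraries, with a log2 fold change of 0.20 ± 0.050 (SE, adjusted p = 0.00141). MRPL53 had a log2 fold change of 0.41 ± 0.21 and MRPS14 of 0.08 ± 0.070, and neither passed the test (adjusted p = 0.0958 and 0.333), while MRPL53 passed it without replicate 1 of the attached GFI1 libraries (0.0398). MRPL53 rested on 31 to 93 counts per library, and 72.8% of its exon bases are shared with CCDC142 on the same strand.

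In floating cells, most of the genes were also lower with GFI1. Of the 77 genes, 57 fell and 2 rose, against 31.1% and 29.3% of all genes tested, with a median log2 fold change of -0.34 for the members and 0.01 for all genes. Without replicate 1, 2 or 3 of the floating GFI1 libraries, which stood apart from each other, 52, 54 and 57 members fell. The largest falls were those of MRPS12, MRPL12, MRPL39 and MRPL3. MRPS12 (chromosome 19, 38930548 to 38933162, plus strand), the small subunit protein at the decoding center, had 149.7, 143 and 142 CPM in floating control and 74.8, 77.8 and 78.2 CPM in floating GFI1 libraries. All 3 GFI1 libraries lay far below the control libraries, and the log2 fold change was -0.91 ± 0.053 (SE, adjusted p = 7.52e-14). MRPL12 had 24.7, 19.9 and 25.3 CPM in floating control and 12.5, 12.5 and 13.1 CPM in floating GFI1 libraries. Here the GFI1 libraries were close to each other, and the log2 fold change was -0.88 ± 0.12 (SE). MRPL39 and MRPL3 had log2 fold changes of -0.86 ± 0.082 and -0.72 ± 0.045 (SE).

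MRPS6, MRPL53, MRPL16 and MRPL43 had the highest log2 fold changes in floating cells. MRPL16 rose again, from 43.2, 41.4 and 42.5 CPM to 50.1, 46.2 and 47.2 CPM, with a log2 fold change of 0.17 ± 0.051 (SE, adjusted p = 0.00479). MRPL53 (0.36 ± 0.23) and MRPL43 (0.03 ± 0.056) did not pass the test. The GFI1 effects in attached and floating cells share no library. Across the 77 genes, they had a Pearson coefficient of 0.872 and a Spearman coefficient of 0.887, and of 0.897 by Pearson without MRPS6. Genes measured in the same libraries are not independent, so these coefficients are descriptions. Coefficients over all genes tested were not set beside them, so they are not shown to be particular to the members. Of the 77 genes, 51 fell under both conditions, 2 rose under both and 11 passed the test in neither. Among all genes tested, 32.8% fell and 29.5% rose in attached cells, and 31.1% fell and 29.3% rose in floating cells. The shares of all genes called under both conditions or in neither were not counted.

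**Figure D2:**
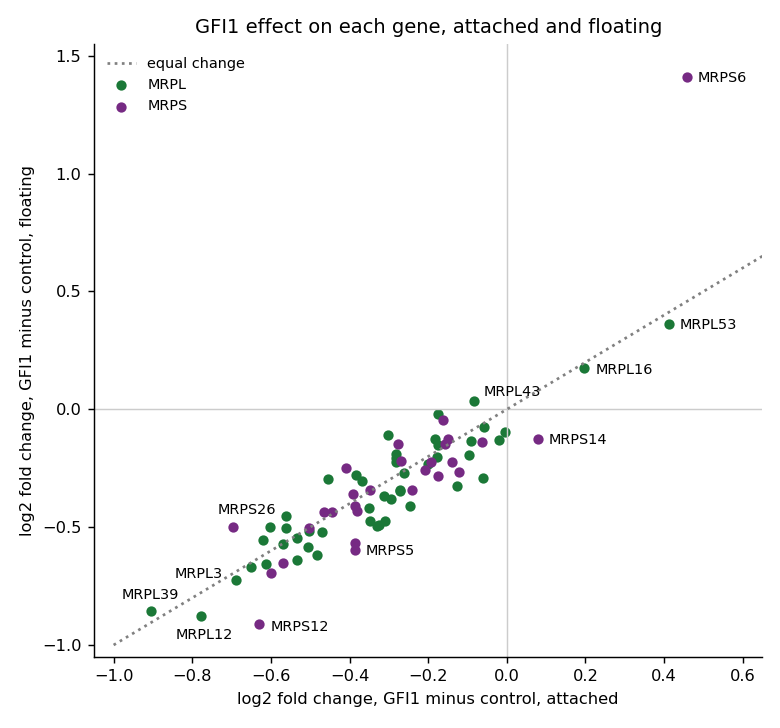
Log2 fold change of each of the 77 tested genes with GFI1 in attached cells (horizontal) and in floating cells (vertical), with MRPL genes in green and MRPS genes in purple. The dotted line marks equal change, most genes lie along it below 0 on both axes, and MRPS6 stands apart at 0.46 and 1.41.

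Many of these genes were also lower in cells without a substrate. In control cells, 37 of the 77 genes were lower and 1 was higher in floating than in attached cells, against 20.5% lower and 19.6% higher among all genes tested. Of the protein-coding genes tested, 24.8% were lower and 22.7% higher. The median log2 fold change was -0.16 for the members and 0.01 for all genes. The lowest values were those of MRPL33, MRPL24, MRPS26 and MRPS17. MRPL33, a small protein of the large subunit with a bacterial counterpart, had 49.7, 49.5 and 49.1 CPM in attached and 34.7, 37.1 and 36.7 CPM in floating control cells. The conditions were clearly separated, with a log2 fold change of -0.45 ± 0.054 (SE, adjusted p = 1.98e-07). In the reference annotation, 21.1% of the exon bases of MRPL33 are shared with BABAM2 on the same strand. MRPL24 fell by 0.40 ± 0.050 and MRPS26 by 0.36 ± 0.050 on the log2 scale (SE). MRPS17 had 82 to 154 counts per library and a log2 fold change of -0.36 ± 0.13 (adjusted p = 0.0327), and its call was lost without replicate 1 or 2 of the attached or replicate 1 or 3 of the floating control libraries (adjusted p between 0.0530 and 0.119) and with DESeq2 (0.0999). For MRPS17, 25% of the exon bases are shared with other genes on the same strand. The member that rose was MRPL45 (chromosome 17, 38297023 to 38323218, plus strand), a large subunit protein that helps to hold the ribosome at the inner membrane. It had 45.2, 46.9 and 43.6 CPM in attached and 51.8, 58.0 and 53.1 CPM in floating control cells. The groups did not overlap, with a log2 fold change of 0.26 ± 0.057 (SE, adjusted p = 0.000483). MRPL34 (0.16 ± 0.087), MRPL10 (0.09 ± 0.061) and MRPS35 (0.08 ± 0.046) were the next highest and did not pass the test, except MRPL34 without replicate 1 of the attached control libraries (adjusted p = 0.0054).

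In GFI1-expressing cells, 40 of the 77 genes were lower and 2 were higher in floating than in attached cells, against 16.3% lower and 15% higher among all genes tested. Of the protein-coding genes tested, 19.9% were lower and 17.5% higher. The median log2 fold change was -0.19 for the members and 0.00 for all genes. Without replicate 1, 2 or 3 of the floating GFI1 libraries, 37, 34 and 39 members were lower. MRPS12 had 112, 107 and 104 CPM in attached GFI1 cells against the 74.8 to 78.2 CPM of the floating ones given above, a log2 fold change of -0.48 ± 0.053 (SE, adjusted p = 1.02e-07). MRPL33 and MRPL11, which lies at the base of the stalk, each fell by 0.39 on the log2 scale. MRPL12 had a log2 fold change of -0.43 ± 0.13 (adjusted p = 0.0102), and its call was lost without replicate 1 or 3 of the attached GFI1 libraries (adjusted p = 0.0932 and 0.068). MRPL45 was higher in floating cells here too, with a log2 fold change of 0.17 ± 0.056 (SE, adjusted p = 0.0249). This call was lost with DESeq2 (adjusted p = 0.0619), with the counts of its pseudogenes added (0.0955) and without replicate 2 or 3 of the attached or replicate 1 or 2 of the floating GFI1 libraries (0.0656 to 0.124). The pseudogenes of MRPL45 held 13.9% as many counts as MRPL45 itself. MRPL41 (0.12 ± 0.053) and MRPL43 (0.08 ± 0.056) did not pass the test, except MRPL41 without replicate 1 of the attached or replicate 3 of the floating GFI1 libraries (adjusted p = 0.0243 and 0.0449). The suspension effects in control and in GFI1 cells share no library, and across the 77 genes they had a Pearson coefficient of 0.475, a Spearman coefficient of 0.621 and, without MRPS6, a Pearson coefficient of 0.668. Here too, coefficients over all genes tested were not set beside these.

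**Figure D3:**
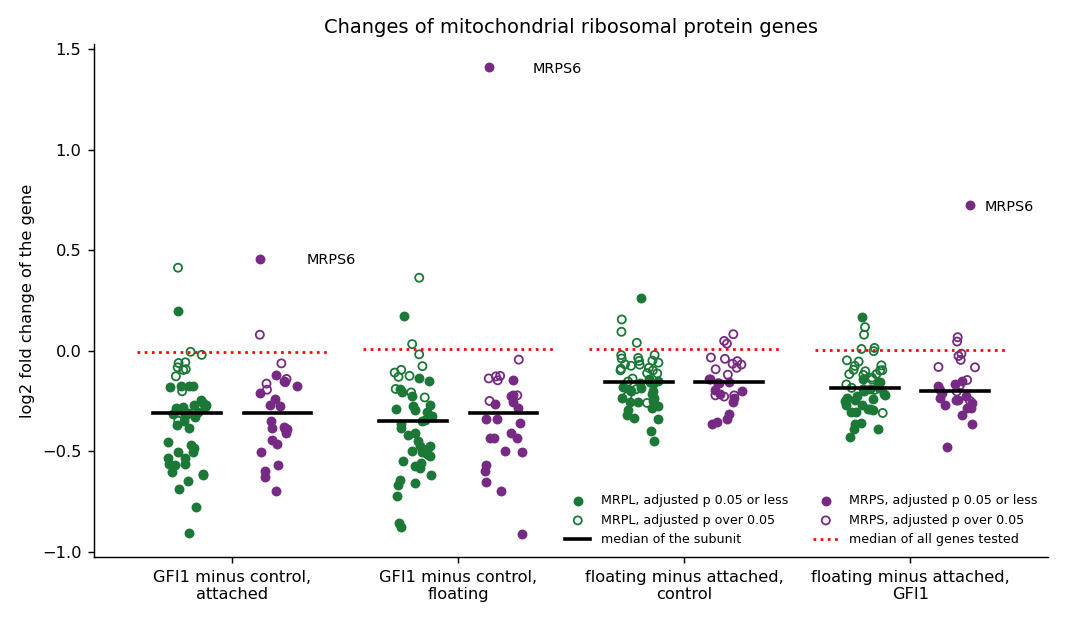
Log2 fold change of each tested gene in the 4 comparisons, with MRPL genes in green and MRPS genes in purple. Filled points passed the test, black bars mark the median of each subunit and dotted red lines the median of all 17829 genes tested. The medians of both subunits lie between -0.31 and -0.35 with GFI1 and between -0.15 and -0.20 with suspension.

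Genes of both subunits fell with GFI1. With GFI1 in attached cells, 37 of 49 MRPL genes fell and 1 rose, with a median log2 fold change of -0.31, and 21 of 28 tested MRPS genes fell and 1 rose, with a median of -0.31. In floating cells, the counts were 37 and 1 with a median of -0.35 for MRPL and 20 and 1 with a median of -0.31 for MRPS genes. Among all genes tested, 32.8% fell and 29.5% rose in attached cells, with a median of -0.01. In floating cells, 31.1% of all genes fell and 29.3% rose, with a median of 0.01. With suspension the medians were -0.15 and -0.16 in control cells and -0.19 and -0.20 in GFI1 cells. The summed counts give the balance of the subunits in each library. The sum of the MRPL genes over that of the MRPS genes was 1.40, 1.42 and 1.38 in attached control, 1.47, 1.40 and 1.43 in attached GFI1, 1.40, 1.39 and 1.39 in floating control and 1.47, 1.45 and 1.43 in floating GFI1 libraries. The ratio overlapped between control and GFI1 in attached cells (exact two-sided permutation test p = 0.2). It was 4.15% higher with GFI1 in floating cells, without overlap (exact permutation p = 0.1). Without MRPS6, which rose, the ratio was 6.68% higher, and with subunits assigned by structure it was 5.90% higher (both exact permutation p = 0.1). By structure, the ratio did not overlap in attached cells either, at 1.4999 to 1.548 in control and 1.551 to 1.61 in GFI1 libraries (exact permutation p = 0.1). These ratios weigh the abundant genes most, and a ratio shows unequal change of the sums only.

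Proteins with bacterial counterparts and proteins found only in mitochondria were both among the genes that fell. In attached cells, where 32.8% of all genes fell, GFI1 lowered 24 of 29 large subunit genes with a bacterial counterpart (median log2 fold change -0.31) and 14 of 21 mitochondria-specific ones (-0.25). In the small subunit, it lowered 12 of 15 tested genes with a bacterial counterpart (-0.39) and 7 of 9 mitochondria-specific ones (-0.38). In floating cells, where 31.1% of all genes fell, it lowered 25 of 29 (-0.38) and 12 of 21 (-0.23) of the large subunit genes. Of the small subunit genes, it lowered 11 of 15 (-0.34) and 8 of 9 (-0.36). With suspension of control cells, where 20.5% of all genes fell, 19 of 29 and 5 of 21 large subunit genes and 8 of 15 and 5 of 9 small subunit genes fell, so that the mitochondria-specific large subunit genes were near the share of all genes. These counts are descriptions and the differences between the classes were not tested.

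Several members have roles of their own. MRPL58, which also acts as a peptidyl-tRNA hydrolase that rescues stalled ribosomes, had 38.8 to 40.5 CPM in attached control and 24.3 to 27.9 CPM in attached GFI1 libraries. It fell by 0.61 ± 0.062 on the log2 scale in attached and by 0.66 ± 0.065 in floating cells (SE). The 3 genes named MRPS18 encode related proteins that occupy separate places in the ribosome. MRPS18B fell with GFI1 by 0.17 ± 0.052 with a substrate (adjusted p = 0.0053) and by 0.28 ± 0.053 without it (adjusted p = 5.43e-05). The first call was lost without replicate 1 of the attached control libraries (adjusted p = 0.0505) and with total counts alone (0.668). MRPS18C had log2 fold changes of -0.27 ± 0.088 (attached, adjusted p = 0.0101) and -0.22 ± 0.092 (floating, adjusted p = 0.0414). The first call was lost with total counts alone (adjusted p = 0.235). The second was lost in 8 of the 11 alternatives that keep all libraries (adjusted p = 0.0508 to 0.397), DESeq2 and the fit of 2 groups among them. It was also lost without any 1 of 6 libraries (0.0511 to 0.1995). These were the attached GFI1 libraries, replicates 1 and 3 of the floating GFI1 and replicate 3 of the floating control libraries. MRPS18A, of the large subunit by structure, had -0.16 ± 0.084 and -0.15 ± 0.086 and did not pass the test (adjusted p = 0.11 and 0.147, and 0.0405 in floating cells without replicate 3 of the floating GFI1 libraries). MRPS30, also of the large subunit by structure, had -0.15 ± 0.061 in attached cells (adjusted p = 0.0357, and 0.1 with DESeq2) and -0.13 ± 0.062 in floating cells (adjusted p = 0.0803). Its call in attached cells was also lost with RLE scaling (adjusted p = 0.0528), upper quartile scaling (0.167) and total counts alone (0.964). The same held with at least 10 counts required in every library (0.0774) and in the fit of 2 groups (0.0674). It was also lost without any 1 of 6 libraries (adjusted p between 0.0712 and 0.208). These were replicates 1 and 3 of the attached GFI1, 2 and 3 of the attached control and 1 and 2 of the floating GFI1 libraries. In floating cells MRPS30 passed the test without replicate 3 of the floating GFI1 (adjusted p = 0.0250) or replicate 1 of the floating control libraries (0.0401). MRPS36, which is no ribosomal protein, had -0.06 ± 0.084 and -0.14 ± 0.084 and passed the test in no comparison. Among the most abundant genes per length, MRPS34 had 122 to 139.6 CPM in attached control and 94.6 to 105 CPM in attached GFI1 libraries, and MRPL51 had 119 to 126 CPM and 85.3 to 103 CPM. Both fell with GFI1 in attached cells, by 0.39 ± 0.053 and 0.37 ± 0.055 on the log2 scale, and so did MRPL41, by 0.17 ± 0.053 (adjusted p = 0.00629). The MRPL41 call was lost without replicate 2 of the attached GFI1 libraries (adjusted p = 0.0653) and with upper quartile scaling (0.0534) or total counts alone (0.686). In floating cells, the log2 fold changes were -0.57 ± 0.055 for MRPS34, -0.30 ± 0.056 for MRPL51 and -0.02 ± 0.053 for MRPL41, which did not pass the test there (adjusted p = 0.792).

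The GFI1 effect differed between attached and floating cells for 3 of the 77 genes, against 10.8% of all genes tested, all of them MRPS genes. MRPS6, a small subunit protein with a bacterial counterpart, had 19.0, 14.9 and 17.9 CPM in attached control, 24.5, 22.2 and 24.4 CPM in attached GFI1, 15.8, 14.1 and 14.2 CPM in floating control and 39.8, 46.5 and 31.2 CPM in floating GFI1 libraries. Every GFI1 library was above every control library, and every floating GFI1 library was above every attached one. GFI1 raised MRPS6 by 0.46 ± 0.11 on the log2 scale in attached cells (adjusted p = 0.000997). Without a substrate this was 1.41 ± 0.11 (adjusted p = 3.4e-11). The difference between them was 0.95 ± 0.16 (SE, adjusted p = 0.000168), and it lay between 0.79 and 1.096 under all 22 alternatives that gave a value. MRPS6 lies on chromosome 21 (34073224 to 34143034, plus strand, hg38), and SLC5A3, the gene of a myo-inositol transporter, lies within its span on the same strand. SLC5A3 had 30.6 to 36.5 CPM in the 6 control libraries, 77.9, 85.3 and 87.6 CPM in attached GFI1 and 198, 273 and 152 CPM in floating GFI1 libraries. Its log2 fold changes with GFI1 were 1.31 ± 0.14 and 2.68 ± 0.13, with a difference of 1.36 ± 0.19 (SE, adjusted p = 1.92e-05). In the floating GFI1 libraries, MRPS6, SLC5A3 and GFI1 were each highest in replicate 2 and lowest in replicate 3. In the reference annotation, 9.48% of the exon bases of MRPS6 are shared with other genes on the same strand, SLC5A3 among them, and the part of these reads in the change of MRPS6 was not tested.

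MRPS12 and MRPS5 differed in the other direction, with a larger fall in floating cells. MRPS12 had 179, 152 and 168 CPM in attached control against the 104 to 112 CPM of attached GFI1 libraries. Its fall with GFI1 was 0.63 ± 0.051 in attached and 0.91 ± 0.053 in floating cells, and the difference was -0.28 ± 0.073 (SE, adjusted p = 0.012). MRPS5, a small subunit protein near the mRNA entry channel, had 77.2, 77.01 and 75.2 CPM in attached control, 56.1, 60.003 and 59.2 CPM in attached GFI1, 76.5, 80.9 and 77.7 CPM in floating control and 52.3, 51.5 and 51.8 CPM in floating GFI1 libraries. The control groups overlapped each other, and the floating GFI1 libraries were below the attached ones. The difference was -0.21 ± 0.065 (SE, adjusted p = 0.0361). In the reference annotation, 23.3% of the exon bases of MRPS5 are shared with another gene on the same strand. The MRPS5 call was lost with DESeq2 (adjusted p = 0.0537), without the low-count filter (0.199) and without any 1 of 8 libraries, which were all attached control libraries, replicates 2 and 3 of the attached GFI1 libraries, replicates 2 and 3 of the floating control libraries and replicate 3 of the floating GFI1 libraries (0.0523 to 0.120).

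**Figure D4:**
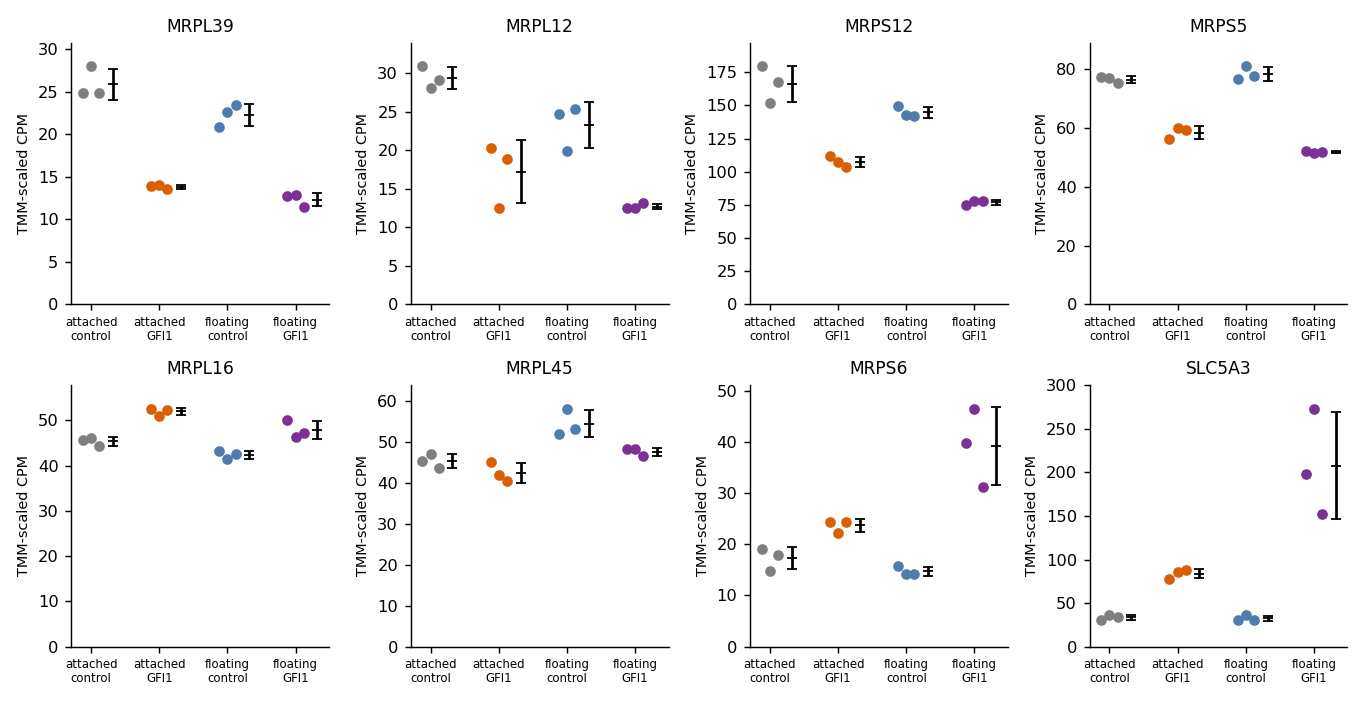
TMM-scaled CPM in each library by group for 7 mitochondrial ribosomal protein genes and for SLC5A3, which overlaps MRPS6. Points are libraries, bars give the mean with its SD (n = 3) and every axis starts at 0. MRPL39, MRPL12, MRPS12 and MRPS5 are lower and MRPS6 and SLC5A3 higher in the GFI1 groups, with 39.8, 46.5 and 31.2 CPM of MRPS6 in floating GFI1 libraries.

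Exons shared with other genes were common among the members. In GENCODE v44, 18 of the 78 genes share at least 1 exon base with another gene on the same strand and 30 on the other strand. The annotation release and strand setting of the counting are not given in the sources used here, so overlaps behind the counts can differ. Among the 60 tested genes without a base shared on the same strand, 47 fell with GFI1 in attached and 47 in floating cells, against 32.8% and 31.1% of all genes. Their medians were -0.34 and -0.38. Among the 37 tested genes without a base shared on either strand, 31 fell in attached and 30 in floating cells, with medians of -0.35 and -0.41. Rows named as pseudogenes of a member numbered 75 and together held 0.284% as many counts as the members.

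Among the other genes of mitochondrial translation, more fell than rose with GFI1. The counts below stand beside 32.8% of all genes lower and 29.5% higher in attached and 31.1% lower and 29.3% higher in floating cells. Of 5 further proteins of the ribosome that carry other names, 5 fell in attached and 4 in floating cells, led by AURKAIP1 (-0.40 ± 0.059 and -0.42 ± 0.061). Of 29 assembly factors, 17 fell and 3 rose in attached and 20 fell and 4 rose in floating cells. C1QBP, a matrix protein needed for assembly, fell by 0.71 ± 0.058 and 0.82 ± 0.059, and the pseudouridine synthase gene RPUSD3 rose by 0.55 ± 0.062 and 0.34 ± 0.064. Of 17 translation factors, 12 fell and 2 rose in attached and 11 fell and 0 rose in floating cells. The initiation factor gene MTIF2 fell by 0.72 ± 0.058 and 0.82 ± 0.059, and MTIF3, another initiation factor gene, rose by 0.34 ± 0.079 in attached cells and had 0.11 ± 0.078 in floating cells (adjusted p = 0.238). Of 17 mitochondrial tRNA synthetases, 10 and 12 fell and 0 rose, with NARS2 at -1.07 ± 0.075 and -1.06 ± 0.078 and IARS2 at -0.60 ± 0.042 and -0.59 ± 0.042. Of 17 genes of mitochondrial DNA expression, 10 fell in attached cells and 8 fell and 1 rose in floating cells. The packaging and transcription factor gene TFAM fell by 0.59 ± 0.044 and 0.63 ± 0.045, and the elongation factor gene TEFM rose in floating cells by 0.35 ± 0.12. With suspension, the list medians lay between -0.09 and -0.16 in both control and GFI1 cells.

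**Figure D5:**
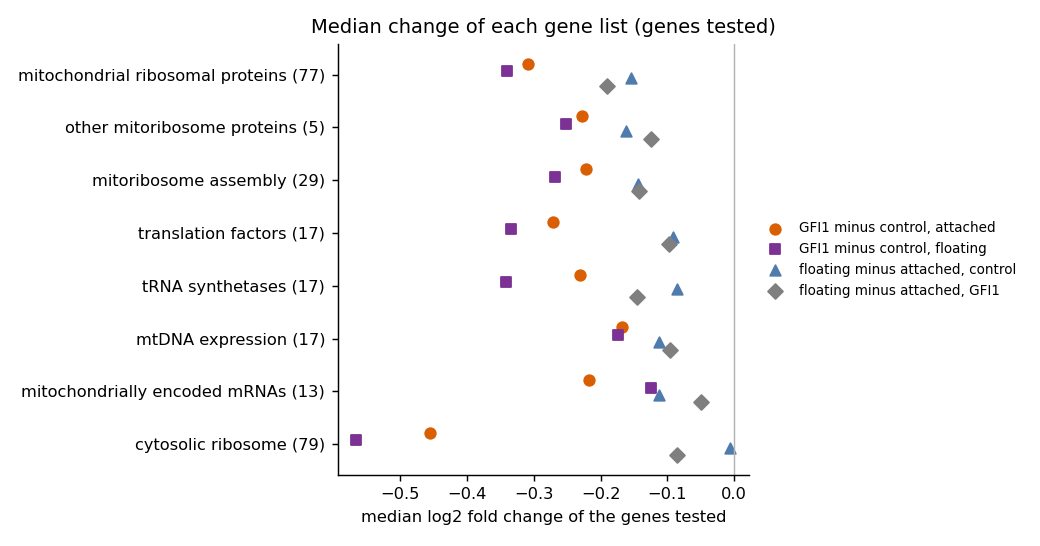
Median log2 fold change of the tested genes of each list in the 4 comparisons, with the number of genes tested in brackets. The mitochondrial ribosomal protein genes lie at -0.31 and -0.34 with GFI1, the cytosolic ribosome genes lie at -0.46 and -0.57, and with suspension of control cells the cytosolic ribosome lies at -0.01.

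The mRNAs made in mitochondria also fell more often than they rose with GFI1. Of the 13 mitochondrial mRNAs, 9 fell and 1 rose with GFI1 in attached cells and 7 fell and 0 rose in floating cells. The medians were -0.22 and -0.13. Among all genes tested, 32.8% fell and 29.5% rose in attached and 31.1% fell and 29.3% rose in floating cells. With suspension, 5 fell and 2 rose in control cells, against 20.5% and 19.6% of all genes. In GFI1 cells 1 fell and 0 rose with suspension, against 16.3% and 15% of all genes. MT-CO3, a subunit of cytochrome c oxidase, fell by 0.44 ± 0.048 and 0.51 ± 0.048, and MT-CYB rose in attached cells by 0.22 ± 0.053. The large rRNA MT-RNR2 fell by 0.45 ± 0.043 in both, while the small rRNA MT-RNR1 had -0.14 ± 0.058 and -0.26 ± 0.058 with GFI1 and rose with suspension by 0.47 ± 0.058 in control and 0.35 ± 0.058 in GFI1 cells. The mRNA was selected by its poly-A tail, so the rRNA values give captured molecules only. Per 100 counts of mitochondrial mRNAs, the 78 genes had 6.63 to 7.34 counts in attached control and 5.39 to 5.80 counts in floating GFI1 libraries.

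Almost all cytosolic ribosomal protein genes fell with GFI1. Of 79 tested, 78 fell in attached and 78 in floating cells, against 32.8% and 31.1% of all genes tested. The medians were -0.46 and -0.57, with RPS16 at -0.69 ± 0.045 and -0.92 ± 0.045. With suspension of control cells 8 fell and 3 rose, with a median of -0.01, against 37 and 1 of the 77 mitochondrial ones. Among all genes tested, 20.5% fell and 19.6% rose there, so the cytosolic counts were below the shares of all genes. With suspension of GFI1 cells 19 fell and 1 rose, with a median of -0.09, against 40 and 2 of the mitochondrial ones. Here 16.3% of all genes fell and 15% rose. Per 100 counts of cytosolic ribosomal protein genes, the 78 mitochondrial genes had 7.40, 7.72 and 7.49 counts in attached control, 8.0035, 8.18 and 8.16 in attached GFI1, 6.69, 6.77 and 6.94 in floating control and 7.74, 7.29 and 8.26 in floating GFI1 libraries. The ratio was higher with GFI1 in attached and in floating cells and lower in floating than in attached control cells, each without overlap (exact two-sided permutation test p = 0.1). It overlapped between attached and floating GFI1 cells (exact permutation p = 0.4).

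Among 11 regulators of mitochondrial biogenesis, 6 fell and 4 rose with GFI1 in attached cells and 4 fell and 2 rose in floating cells. Among all genes, 32.8% fell and 29.5% rose in attached and 31.1% fell and 29.3% rose in floating cells, so these counts were near the background for rises in attached and for falls in floating cells. MYC, a transcription factor that drives ribosome biogenesis, fell with GFI1 by 1.18 ± 0.050 on the log2 scale in attached cells (adjusted p = 1.34e-16). Its fall in floating cells was 1.59 ± 0.054 (adjusted p = 1.16e-18). With suspension, MYC fell by 0.30 ± 0.049 in control and 0.70 ± 0.055 in GFI1 cells. Of the 11 regulators, 6 fell and 2 rose with suspension of control cells, against 20.5% and 19.6% of all genes. With suspension of GFI1 cells 5 fell and 0 rose, against 16.3% and 15% of all genes. The coactivator gene PPARGC1A, named after its values were seen, fell with GFI1 by 2.57 ± 0.14 and 3.06 ± 0.13. With suspension of control cells PPARGC1A rose by 0.53 ± 0.10 (adjusted p = 0.000128). With GFI1, PPARGC1B rose by 0.33 ± 0.075 and 0.30 ± 0.081 and GABPB2 by 0.29 ± 0.084 and 0.57 ± 0.086. The part of these regulators in the changes of the mitochondrial ribosomal protein genes was not tested.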

How the data were processed

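RNA-Seq was made by the authors from poly-A selected mRNA on an Illumina NovaSeq system. The deposited values are raw counts per gene, which per the study's methods came from FastQC, Hisat2 alignment to GRCh38 and featureCounts, while the submitters' processing notes name Bowtie2, HTSeq and hg38. The annotation release and strand setting are not given in the sources used here. Groups and replicate numbers came from the labels. Total counts per library were 17014188 to 20748677, which limits precision for genes of few counts.

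The counts were fitted in R 4.3.3 with edgeR 4.0.16 as 4 group means over 12 libraries, with TMM scaling, filterByExpr (minimum count 10, minimum total count 15) and quasi-likelihood tests, two-sided and adjusted by Benjamini-Hochberg over all 17829 genes in each of 5 contrasts. A gene was called at an adjusted p of 0.05 or less without a fold change threshold. The biological coefficient of variation was 4.86%. RPKM is CPM over the deposited gene length, and the gene length column holds other values in bases. Values for single libraries were compared by exact permutation tests. Motifs were searched in RefSeq windows. Code was tested on simulated data.

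The members and lists were chosen with earlier results of these data known. Named members are the 4 lowest and 4 highest log2 fold changes of each pairwise comparison, those called for the difference between conditions, the 3 most and 3 least abundant per length, and members with special roles. For each further list, 1 gene per direction of each GFI1 contrast is named by its lowest adjusted p, and others are stated as chosen after their values were seen. Alternatives were DESeq2 1.42.0, RLE, upper quartile and library size scaling, other filters, 2 groups only, a gene length offset, a replicate block, pseudogene counts added and leaving out each library.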

Additional observations from a re-analysis of the deposited data

Results flagged for a closer look

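For 3 genes, the suspension change differed between control and GFI1-expressing cells, by the interaction term of the edgeR model adjusted over 17829 genes. The difference was 0.95 on the log2 scale for MRPS6 (adjusted p = 0.000168), with all 3 floating GFI1 libraries above all 9 others. It was -0.28 for MRPS12 (adjusted p = 0.012), which fell in floating cells of both kinds and more in those with GFI1. It was -0.21 for MRPS5 (adjusted p = 0.0361), and this call did not hold with DESeq2.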

How the results depend on the processing

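The number of members that fell stayed within 1.5 times its value under every alternative. It was 39 to 60 with GFI1 in attached and 43 to 59 in floating cells, 26 to 40 with suspension of control and 30 to 40 of GFI1 cells, and 2 to 4 members differed between conditions. With 1 library left out, these counts were 54 to 60, 52 to 58, 26 to 38 and 30 to 39. DESeq2 gave 54, 52, 28 and 34. Called changes of the named members, repeated under each alternative, kept the call 1560 times, lost it 93 times and changed direction 0 times. Changes that had not passed the test stayed so with the same sign 1125 times, passed it 23 times and crossed 0 in 25 repeats. With total counts as the only scaling, log2 fold changes with GFI1 in attached cells became 0.087 for MRPL34, 0.065 for MRPL43, 0.052 for MRPL45 and 0.084 for MRPS36, and in floating cells 0.11 for MRPL41, 0.0047 for MRPS14 and 0.0011 for MRPS30. With upper quartile scaling, MRPL41 had 0.030 with GFI1 in floating cells and MRPS35 had 0.00077 with suspension of GFI1 cells, and with at least 10 counts required in every library MRPL41 had 0.0011. With 1 library left out, the GFI1 change was -0.13 to 0.076 for MRPL34 in attached cells, and in floating cells -0.066 to 0.014 for MRPL41 and -0.016 to 0.078 for MRPL43. The suspension change of control cells was -0.061 to 0.18 for MRPL38, -0.074 to 0.0058 for MRPL41 and -0.072 to 0.010 for MRPS18B. That of GFI1 cells was -0.10 to 0.094 for MRPL38, -0.094 to 0.023 for MRPS30, -0.045 to 0.029 for MRPS35 and -0.11 to 0.071 for MRPS36. The cause was not tested.

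Libraries of the same replicate number correlated at -0.031 to 0.031 in their deviations from the group means, with 0 of 18 pairs over 0.1 and 10 of 36 comparisons best with the own number, so the numbers were not taken as pairs. With the replicate block, 59, 58, 36 and 40 members fell in the 4 comparisons. The block ended the call of MRPS18C with GFI1 in floating cells (adjusted p = 0.0508) and made one for MRPS30 there (0.0475), and it changed no other call of the named members. MRPL53, MRPS17, MRPL38 and MRPS24 had the fewest counts, and small changes were not detectable at this depth for them.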
